A study of Arabidopsis thaliana with 3 samples.

Results

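The genes described here encode ribonucleotide reductase in Arabidopsis thaliana: TSO2 (AT3G27060), RNR1 (AT2G21790) and RNR2A (AT3G23580). They were picked by locus identifier with their sperm levels already known, and all 3 were found among the 33602 transcripts of the deposited table. Their levels are therefore a description and carry no test. By its title the study deals with the resetting of a histone mark, H3K27me3, in paternal chromatin. Sperm cells of wild-type Col-0 plants were sorted by fluorescence from pollen, and their RNA was sequenced with Smart-seq2, which amplifies full-length cDNA from small amounts of RNA. Of sperm, 3 libraries are described, and the table has a single sperm column that holds their mean in TPM, a share of all transcripts corrected for length. A second column is named pollen, and the design text names mature pollen beside sperm as material prepared by the same method. That the column holds this material is inferred from its name. Age and growth of the pollen plants, and the number of pollen libraries, are not known from the labels. No level below has an error, so neighbouring levels cannot be said to differ beyond their spread.

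Ribonucleotide reductase turns ribonucleoside diphosphates into deoxyribonucleoside diphosphates, the step that commits nucleotides to DNA synthesis and repair. The enzyme joins a large subunit, which holds the catalytic and allosteric sites, with a small subunit that supplies a tyrosyl radical. In Arabidopsis RNR1 encodes the large subunit, while TSO2 and RNR2A encode small subunits. TSO2 transcripts are known to accumulate in S phase, and plants lacking TSO2 develop abnormally.

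TSO2 was among the most abundant transcripts of sperm, with RNR2A well below it and RNR1 lowest of the 3. TSO2 was at 4069 TPM in sperm and 21.5 TPM in pollen. RNR2A was at 81.6 TPM in sperm and 0.970 TPM in pollen. RNR1 was at 4.77 TPM in sperm and 0.122 TPM in pollen. In sperm the 3 genes thus spanned 853-fold, with the small subunit gene TSO2 highest and the large subunit gene lowest.

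In sperm TSO2 ranked 33rd of all 33602 transcripts and made up 0.407% of the total, while in pollen it ranked 1281st and made up 0.00215%. RNR2A ranked 899th in sperm and 6068th in pollen. RNR1 ranked 4354th in sperm and 13423rd in pollen. All 3 lay at or above 1 TPM in sperm, as did 21.7% of all transcripts, and TSO2 alone did so in pollen, as did 17.8% of all transcripts. Among the 128 pathway genes described below, which include these, TSO2 ranked 1st in sperm, RNR2A 18th and RNR1 55th.

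RNR2B (AT5G40942), another gene of the family, stands in the reference table as a transcribed pseudogene of the small subunit. It was at 7.26 TPM in sperm and 0.261 TPM in pollen. It held 8.16% of the summed level of RNR2A and RNR2B in sperm and 21.2% in pollen. Small subunit genes resemble one another, and an estimate of transcript levels divides any reads they share, so the split between them, above all that of RNR2A and RNR2B, is uncertain.

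**Figure D1:**
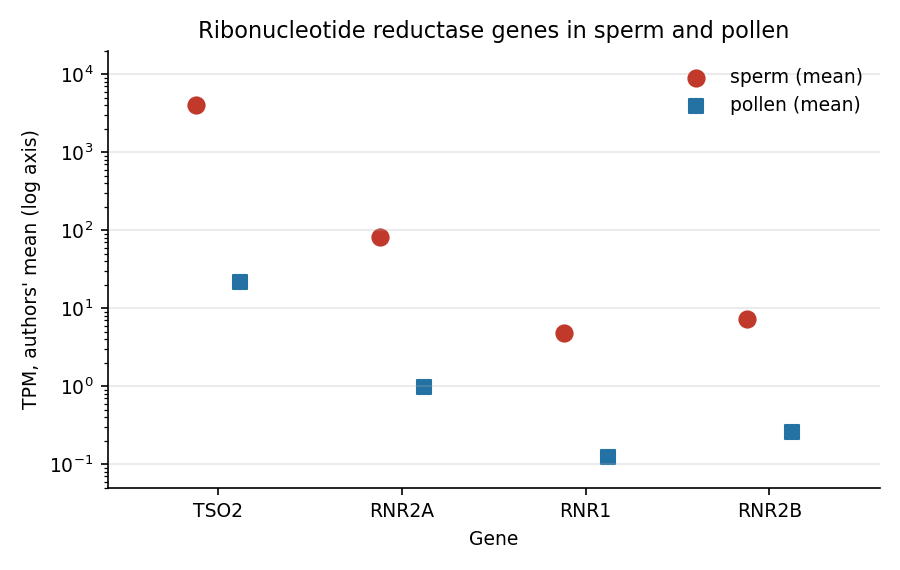
Level of the ribonucleotide reductase genes in sperm (circles) and pollen (squares), as the authors' values in TPM on a log axis. TSO2 is at 4069 TPM in sperm and 21.5 TPM in pollen, and RNR1 at 4.77 TPM in sperm and 0.122 TPM in pollen.

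Within the trio TSO2 held 97.9% of the summed TPM in sperm and 95.2% in pollen. RNR2A held 1.96% in sperm and 4.29% in pollen, and RNR1 held 0.115% in sperm and 0.541% in pollen. The summed TPM of the 3 was 4156 in sperm and 22.6 in pollen. TSO2 made up 98.0% of the small subunit pair TSO2 and RNR2A in sperm and 95.7% in pollen, so it prevailed in both.

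Small subunit transcripts exceeded those of the large subunit in both sperm and pollen. TSO2 plus RNR2A stood at 870 times RNR1 in sperm and 184 times in pollen, the second of which rests on RNR1 at 0.122 TPM. The log2 ratio was 9.77 in sperm and 7.52 in pollen as it stands, 9.74 in sperm and 6.67 in pollen with 0.1 TPM added to each side, and 9.49 in sperm and 4.39 in pollen with 1 TPM added. The gap between sperm and pollen thus grew with the added value, because RNR1 in pollen lay below 1 TPM. TSO2 alone was at 853 times RNR1 in sperm, and RNR2A at 17.1 times. RNR2A over RNR1 was 7.93 in pollen. These ratios set transcripts against each other by length-corrected level and say nothing of protein amounts.

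On the log2(TPM + 1) scale, sperm minus pollen was 7.50 for TSO2, 5.39 for RNR2A, 2.71 for RNR2B and 2.36 for RNR1. A difference of 1 or more, a 2-fold change on this scale, was found upwards in 15.3% of all transcripts and downwards in 9.12%, and the median over all transcripts was 0.00. Since the genes were picked with their sperm levels known, nothing is read from these against that background. The scale understates the change of low genes: in plain TPM sperm was 189-fold above pollen for TSO2, 84.1-fold for RNR2A, 39.0-fold for RNR1 and 27.9-fold for RNR2B. TSO2 and RNR2A led on both scales, while RNR1 and RNR2B changed places between them. Sperm were sorted and pollen was not, so cell type and sorting cannot be told apart, and a bulk value cannot tell fewer cells of a type from less RNA per cell.

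Pollen encloses the sperm, so its RNA mixes a small part from sperm with that of the large vegetative cell. In pollen TSO2 was at 0.529% of its sperm level, RNR2A at 1.19% and RNR1 at 2.57%. The 7 sperm markers ranged from 0.773% to 4.15% with a median of 0.924%. These include the male-gamete histone gene HTR10, at 4750 TPM in sperm and 37.3 TPM in pollen, and the membrane protein gene PCR11, at 16145 TPM in sperm and 139 TPM in pollen. TSO2 lay just below the range of the markers, and RNR2A and RNR1 inside it. The median of all 3192 transcripts at or above 10 TPM in sperm, 3.86%, lay inside it too. A place in that range is therefore not particular to sperm markers. The percentage of RNR1 rests on 0.122 TPM in pollen.

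Markers of the vegetative cell summed to 330 TPM in sperm and 26861 TPM in pollen. At or above 1 TPM in sperm were 5 of 7, beside 21.7% of all transcripts. The arabinogalactan protein gene AGP6 was at 127 TPM in sperm and 6454 TPM in pollen. SWEET5, a sugar transporter gene, was at 0.035 TPM in sperm and 4.63 TPM in pollen. Leaf photosynthesis markers summed to 0.495 TPM in sperm and 88.0 TPM in pollen. Flower and carpel markers summed to 228 TPM in sperm and 562 TPM in pollen, nearly all of it from SHP1. Early embryo markers summed to 8.55 TPM in sperm and 0.376 TPM in pollen. Markers of the shoot meristem, root meristem and seed storage each summed to less than 1 TPM in either column. TSO2, RNR2A and RNR1 each had a higher level in sperm than in pollen. All 7 vegetative markers were higher in pollen by a log2 difference of 1 or more, as were 9.12% of all transcripts.

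**Figure D2:**
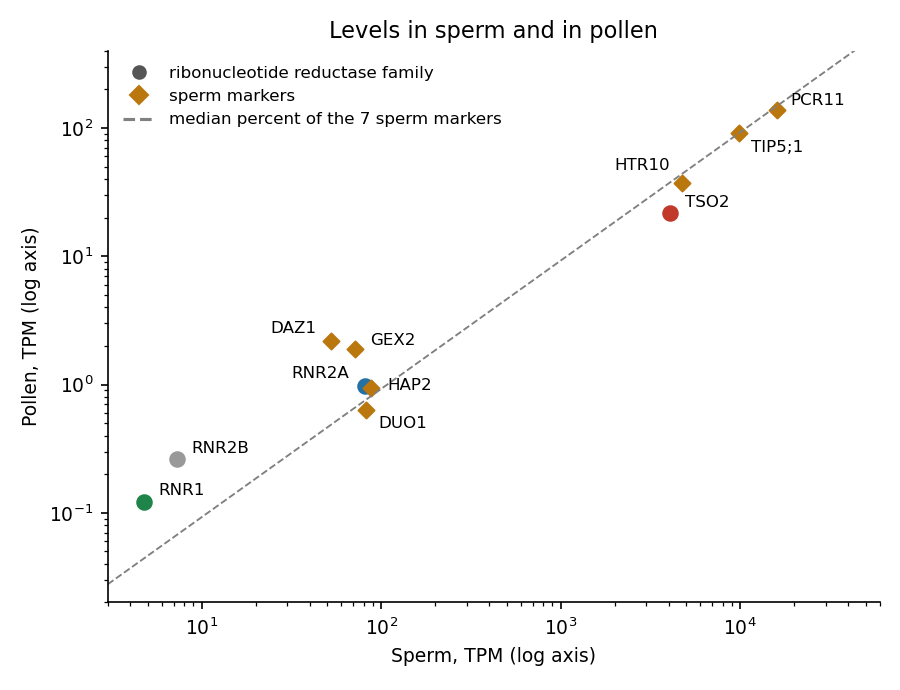
Level in sperm (horizontal) and in pollen (vertical) of the ribonucleotide reductase genes (circles) and of the 7 sperm markers (diamonds), in TPM on log axes. The dashed line marks a pollen level of 0.924% of the sperm level, the median of the markers, and TSO2 lies at 0.529%.

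The digits of the means gave a partial view of the sperm libraries. Of the 2424 sperm values of 10 to 100 TPM, all became whole multiples of 0.00001 TPM when multiplied by 3, within 0.05 of a step, against 33.4% when taken once. The sperm mean of TSO2 then corresponds to a sum of 12207.64 TPM over the 3 libraries, that of RNR2A to 244.9478 TPM and that of RNR1 to 14.31111 TPM. With 6 significant digits per library, these sums hold no digit that a library below 1000 TPM would leave for TSO2, below 10 TPM for RNR2A or below 1 TPM for RNR1. Libraries at zero, or ending in zeros, would go unseen.

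Other genes of deoxynucleotide supply were far below TSO2 in sperm, as were most transcripts, TSO2 being 33rd of 33602. Of 19 genes for synthesis, salvage and control of deoxynucleotides, 12 were at or above 1 TPM in sperm and 8 in pollen, beside 21.7% of all transcripts in sperm and 17.8% in pollen. The list median was 3.70 TPM in sperm and 0.480 TPM in pollen. Against pollen 8 were higher by a log2 difference of 1 or more and 5 were lower, beside 15.3% and 9.12% of all transcripts, with a list median of 0.55, beside 0.00 for all transcripts. THY1, for a joined dihydrofolate reductase and thymidylate synthase, was at 233 TPM in sperm and 3.23 TPM in pollen. DUT1, for the dUTPase that keeps uracil out of DNA, was at 133 TPM in sperm and 1.64 TPM in pollen. VEN4, a homologue of the human deoxynucleotide hydrolase SAMHD1, was at 33.7 TPM in sperm and 0.626 TPM in pollen. THY2, a paralogue of THY1, was at 30.5 TPM in sperm and 0.354 TPM in pollen. TSO2 exceeded these by 17.4-fold for THY1, 30.5-fold for DUT1, 121-fold for VEN4 and 133-fold for THY2 in sperm.

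Kinases of the list had widely different levels. The thymidine kinase genes TK1A and TK1B, the deoxynucleoside kinase gene DNK and ZEU1, for thymidylate kinase, were at 0.534, 3.84, 2.73 and 1.96 TPM in sperm, and at 0.269, 0.0785, 0.0298 and 0.0287 TPM in pollen. The nucleoside diphosphate kinase genes NDPK1 and NDPK3 were at 13.3 and 0.020 TPM in sperm and at 3.48 and 2.07 TPM in pollen. THY3 was listed at 0 in sperm and was at 0.022 TPM in pollen. The 5 genes that were lower in sperm were CDA1, for cytidine deaminase, the guanylate kinase genes GK1 and GK2, PYR6, for a UMP/CMP kinase, and NDPK3. They ranged from 0.020 TPM for NDPK3 to 22.4 TPM for PYR6 in sperm, against 2.07 TPM for NDPK3 and 144 TPM for PYR6 in pollen. Genes named here other than THY1, DUT1, VEN4, THY2, NDPK3 and THY3 were chosen after their values were seen.

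Genes of de novo nucleotide synthesis spread widely in sperm. Of 24 genes 8 were at or above 1 TPM in sperm and 2 in pollen, beside 21.7% of all transcripts in sperm and 17.8% in pollen. The list median was 0.036 TPM in sperm and 0.070 TPM in pollen. The median of all transcripts was 0.021 TPM in sperm and 0.057 TPM in pollen. Listed at 0 in sperm were 4 of the genes, beside 14480 of all 33602 transcripts. Against pollen 8 were higher by a log2 difference of 1 or more and 0 lower, beside 15.3% and 9.12% of all transcripts. CTPS1, a CTP synthase gene, was at 191 TPM in sperm and 3.58 TPM in pollen. IMPDH (AT1G79470), for the enzyme that leads from IMP to guanine nucleotides, was at 166 TPM in sperm and 1.23 TPM in pollen. CTPS3 and PYRB, the gene for aspartate transcarbamoylase, were at 33.2 and 8.45 TPM in sperm and at 0.659 and 0.297 TPM in pollen. ADSS and PURH, which act in purine synthesis, were listed at 0 in sperm and were at 0.044 and 0.016 TPM in pollen.

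Proteins with dithiols can reduce ribonucleotide reductase after each turn. Of 10 genes of the thioredoxin and glutaredoxin systems, 5 were at or above 1 TPM in sperm and 7 in pollen, beside 21.7% of all transcripts in sperm and 17.8% in pollen. Against pollen 4 were higher by a log2 difference of 1 or more and 4 lower, beside 15.3% and 9.12% of all transcripts. The thioredoxin h genes TRX2 and TRX3 were at 109 and 77.7 TPM in sperm and at 1.54 and 19.8 TPM in pollen. The glutaredoxin gene GRXC2 was at 56.8 TPM in sperm and 22.8 TPM in pollen, and TRX4 was at 3.77 TPM in sperm and 0.872 TPM in pollen. The thioredoxin reductase gene NTRB and GRXC1 were listed at 0 in sperm and were at 0.108 and 1.06 TPM in pollen. Besides GRXC1, the genes lower in sperm were TRX1, TRX5 and NTRA, named after their values were seen. They were at 0.355, 0.440 and 0.424 TPM in sperm and at 83.3, 70.5 and 15.5 TPM in pollen.

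**Figure D3:**
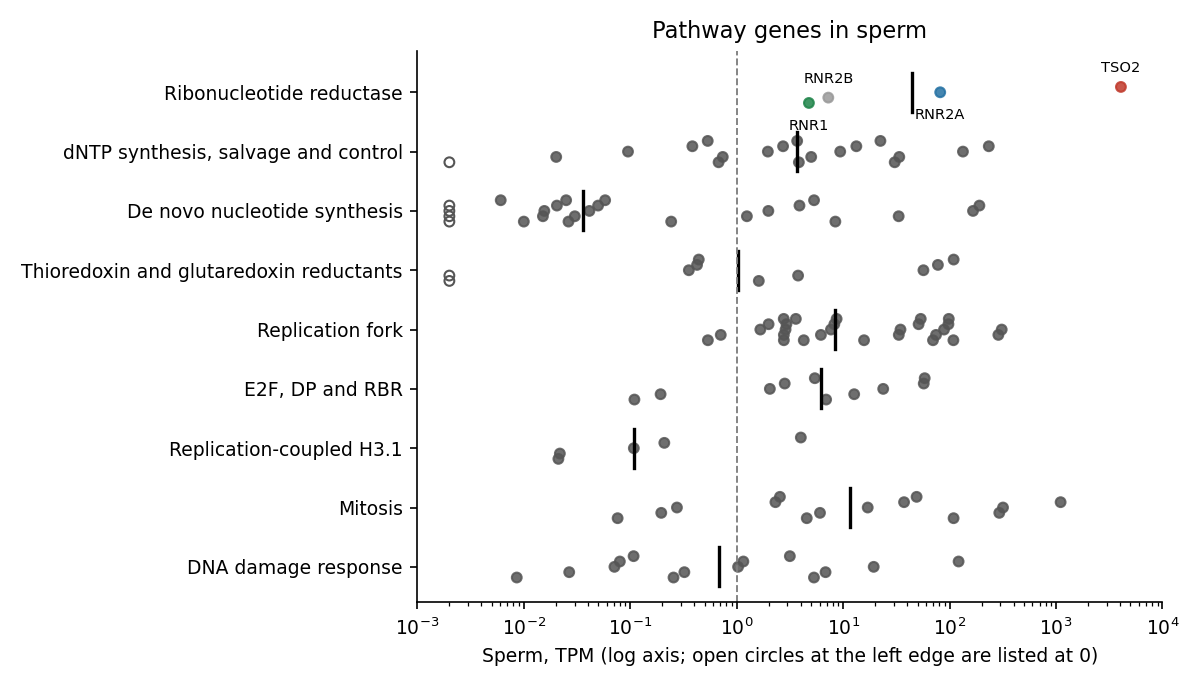
Level in sperm, in TPM on a log axis, of each gene of 9 lists, with black bars at list medians, a dashed line at 1 TPM and open circles for genes listed at 0. TSO2 lies at 4069 TPM, above every other gene shown, of which CYCB1;2 at 1104 TPM is next.

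All replication fork genes lay below TSO2 in sperm, as did nearly all transcripts. For this list and those that follow, the counts stand beside the same all-transcript shares, 21.7% in sperm and 17.8% in pollen at or above 1 TPM and, against pollen, 15.3% higher and 9.12% lower. Of 28 genes 26 were at or above 1 TPM in sperm and 6 in pollen, with a median of 8.47 TPM in sperm and 0.227 TPM in pollen. Against pollen 26 were higher by a log2 difference of 1 or more and 0 lower, and the median difference was 3.07. The helicase genes MCM7 and MCM4 were at 309 and 109 TPM in sperm and at 2.08 and 0.868 TPM in pollen. CDT1A, a licensing factor gene, was at 287 TPM in sperm and 3.61 TPM in pollen, and RPA32B, for a single-strand binding protein, was at 98.3 TPM in sperm and 1.53 TPM in pollen. POLD1, for the catalytic subunit of DNA polymerase delta, and RPA70C were lowest, at 0.536 and 0.709 TPM in sperm. The sliding clamp genes PCNA1 and PCNA2, named after their values were seen, were at 2.77 and 1.67 TPM in sperm and at 0.068 and 0.090 TPM in pollen.

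Histone H3.1 genes, which are transcribed with DNA replication, were all far below TSO2 in sperm, as were most transcripts. Of 5 genes 1 was at or above 1 TPM in sperm and 0 in pollen, which in sperm is a share close to the 21.7% of all transcripts. The list median was 0.108 TPM in sperm, beside 0.021 TPM for all transcripts, and 0.401 TPM in pollen. HTR1 was at 4.0 TPM in sperm and 0.839 TPM in pollen. HTR2, HTR9, HTR13 and HTR3 were at 0.209, 0.108, 0.022 and 0.021 TPM in sperm, against 0.401, 0.444, 0.324 and 0.379 TPM in pollen.

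E2F, DP and RBR proteins set the timing of S-phase transcription and count ribonucleotide reductase genes among their known targets in plants. The list of this group has 10 genes, among them FBL17, which belongs to none of these families. Of the 10 genes, 8 were at or above 1 TPM in sperm and 2 in pollen. The same number, 8, were higher in sperm by a log2 difference of 1 or more and 0 lower, with a median difference of 2.56. DEL3 and DEL1, atypical E2F repressors, were at 58.4 and 23.8 TPM in sperm and at 5.48 and 0.280 TPM in pollen. RBR1, the retinoblastoma homologue, was at 57.2 TPM in sperm and 1.1 TPM in pollen, and E2FC was at 12.7 TPM in sperm and 0.352 TPM in pollen. FBL17 and DEL2 were lowest, at 0.193 and 0.109 TPM in sperm.

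Among 14 mitotic genes, 11 were at or above 1 TPM in sperm and 7 in pollen, and against pollen 8 were higher by a log2 difference of 1 or more and 2 lower. The B-type cyclin gene CYCB1;2 was at 1104 TPM in sperm and 5.79 TPM in pollen, and TSO2 stood at 3.69 times its sperm level. The kinase genes CDKB1;2 and CDKB2;2 were at 318 and 293 TPM in sperm and at 1.86 and 2.03 TPM in pollen. AUR2, for an Aurora kinase, was at 109 TPM in sperm and 68.4 TPM in pollen. HIK, a kinesin gene of cytokinesis, and PLE, a microtubule-associated protein gene, were lowest, at 0.196 and 0.076 TPM in sperm.

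Of 14 DNA damage response genes, 7 were at or above 1 TPM in sperm and 1 in pollen, and against pollen 7 were higher by a log2 difference of 1 or more and 0 lower. The repair gene BRCA1 was at 121.5 TPM in sperm and 1.12 TPM in pollen. KU70 and SOG1, the transcription factor gene that heads the plant DNA damage response, were at 6.84 and 5.32 TPM in sperm and at 0.113 and 0.115 TPM in pollen. BARD1, the partner of BRCA1, and the checkpoint kinase gene ATR were lowest, at 0.027 and 0.0086 TPM in sperm.

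**Figure D4:**
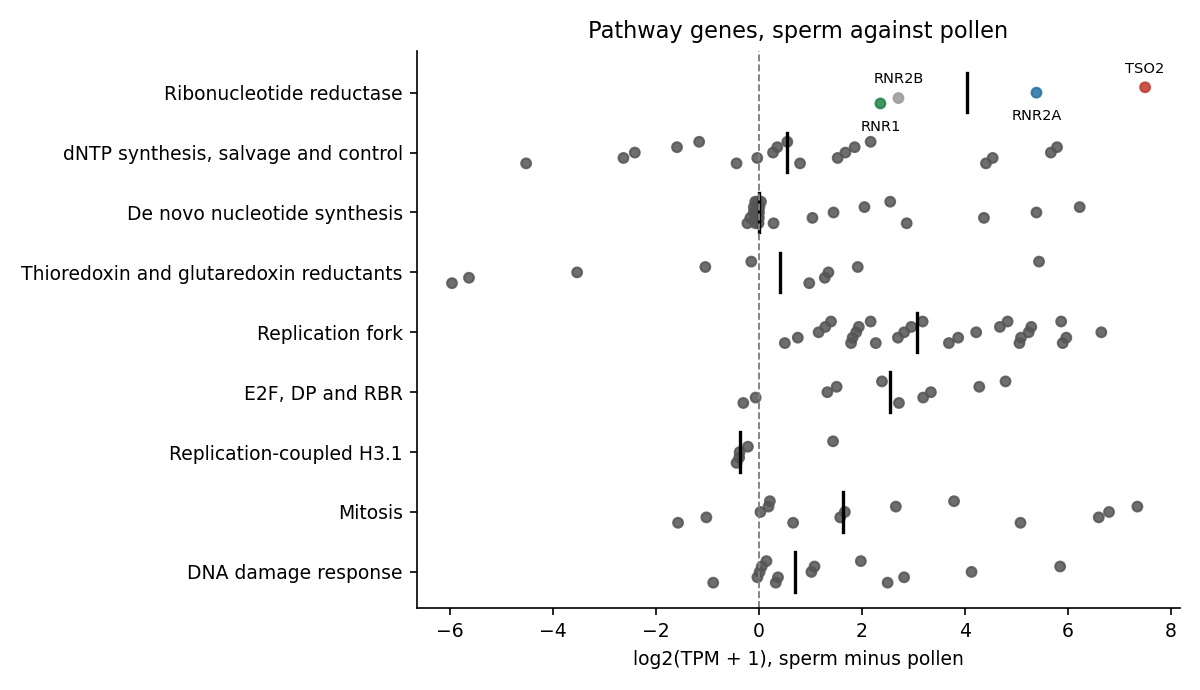
Difference in log2(TPM + 1), sperm minus pollen, for each gene of the same 9 lists, with black bars at list medians and a dashed line at the median of all transcripts. TSO2 lies at 7.50, RNR2A at 5.39 and RNR1 at 2.36, and the list medians run from -0.37 for H3.1 genes to 4.05 for the ribonucleotide reductase genes.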

How the data were processed

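RNA of Arabidopsis sperm was sequenced in 3 labelled samples. The authors deposited TPM values, 1 per transcript and tissue, and the digits of the sperm column show a mean of 3 libraries. Per the submitters' processing notes, the tools were STAR 2.5.2a, kallisto 0.43.1, Trim Galore 0.4.1, bedtools and SAMtools, on TAIR10; their roles are not stated. The annotation, strandedness and filters are not known from the labels. TPM keeps no counts, so depth and counting error are unknown, and nothing says whether the libraries came from separate sorts. Of the 14 value columns, 12 were not used here, since they hold public tissue data that match no labelled sample. They were set aside after their values had been seen. Pollen matches no labelled sample either and was kept because the design text names it beside sperm as material of the study.

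Levels, ratios, ranks and differences of log2(TPM + 1), with a pseudocount of 1 TPM, were computed with Python 3.11.15, pandas 2.3.3 and NumPy 2.4.6. Only the code for the differences and for rescaling without the highest transcripts was checked on simulated data. No filter was applied, and a single value per transcript and column allows no test. With those columns set aside, the planned comparison with the median of all other tissues became one with pollen alone, and the planned search for transcripts of like pattern was dropped. The genes and the 9 pathway and 8 marker lists (163 genes, all in the table) were chosen with earlier results of these data known. Names came from a RefSeq table of assembly TAIR10.1 by locus tag, which held 32835 of the 33602 loci; for 25 list genes it gave no symbol. Genes were named as members, as the 4 highest and 2 lowest of each list in sperm or, where said, after their values were seen. One gene that this rule would name is not reported here.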

Additional observations from a re-analysis of the deposited data

How the results depend on the processing

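Of 83 alternative values for 38 results, 70 stayed within 1.5 times the reported one (or 0.585 on the log2 scale). Of these 70, 33 came from rescaling without organellar transcripts, which could move little. It gave 4081 TPM for TSO2 in sperm in place of 4069 TPM. No log2 ratio or difference changed sign, while levels, ranks and counts have no sign to change. The ranks were also taken among transcripts of at least 1 TPM in sperm or pollen. These 3 values could not move, because every transcript above a member in sperm was itself above 1 TPM. Rescaling without the 10 highest transcripts of each column, which hold 45.4% of the sperm total, gave 7452 TPM for TSO2, 8.74 TPM for RNR1 and 149.5 TPM for RNR2A in sperm. By it sperm minus pollen was 3.05 for RNR1 and 5.99 for RNR2A, and 1 DNA damage response gene in place of 0 was lower in sperm. A pseudocount of 0.1 TPM gave 4.45 for RNR1 and 6.26 for RNR2A. At 5 TPM in place of 1 TPM, 5 de novo synthesis genes, 3 reductant genes, 17 replication fork genes, 0 H3.1 genes and 4 DNA damage response genes passed in sperm. Several of these shifts are fixed by the settings. Rescaling without the 10 highest transcripts multiplied every sperm level by 1.83, past the limit of 1.5. A higher threshold can only keep or lower a count, and a smaller pseudocount can only widen a difference. Rescaling for counts of higher and lower genes was chosen after seeing the data. Leaving out replicates, leaving out pollen, the mean of other columns and the 4 settings for like patterns were not run. The reason was that only 2 columns were used, each with a single value per transcript. No paired analysis was possible because the labels give 1 group.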
